A study of Mus musculus with 2 samples.

Results

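Differentiating myocytes, the cells that leave the muscle progenitor pool to fuse and build contractile fibres, were taken from 2 single-cell libraries of the Isl1-Cre lineage in mouse embryos at E13.5. After cells with 2000 or fewer genes, 9000 or more genes, or at least 10% mitochondrial UMIs were left out, a cell was a member if it had a unique molecular identifier (UMI, which marks a captured transcript) in at least 3 of Myog, Mymk, Mymx, Myh3, Mylpf, Tnnc2 and Neb. Cells with at least 2 of Cdh5, Pecam1, Epcam and Ptprc, or at least 2 of Myh6, Nppa and Myl2, were left out as possible endothelial, epithelial, blood or heart cells. The rule found 763 myocytes among 6272 filtered cells, 465 of 2783 in the control library and 298 of 3489 in the mutant library. Control embryos were Isl1-Cre;R26R-eYFP, in which Cre made where Isl1 is transcribed switches on the fluorescent protein eYFP, and mutant embryos were Isl1-Cre;R26R-eYFP;Pik3caH1047R, in which the same Cre also switches on an activated catalytic subunit of PI3K. Both groups therefore carried Isl1-Cre and the reporter, and neither library holds embryos without Cre. For each genotype, 3 eYFP-positive embryos were pooled, the body above the liver was dissociated, and eYFP-positive cells were sorted for the 10x Genomics 5′ assay. With 1 library per genotype, differences between genotypes have no replicate check, and every interval below is a 95% interval for counting error only.

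The myocytes held 12588947 UMIs in the control library, with a median of 26861 per cell, and 8133845 UMIs in the mutant library, with a median of 27138.5 per cell. Muscle progenitors, used here for comparison, were filtered cells with at least 2 of Pax7, Myf5 and Msc, fewer than 3 of the 7 myocyte markers and the same exclusions. They numbered 406 in control and 436 in mutant, with medians of 26814 and 22422.5 UMIs per cell. The other 1912 control and 2755 mutant cells had medians of 18419 and 15421 UMIs. The deposited libraries shared 28 cell barcodes, of which 3 belonged to control myocytes, 1 to a mutant myocyte and 0 to myocytes of both. The pools differed in embryo sex: 98.3% of control myocytes were female-like by Xist and 4 Y-linked genes, whereas 40.9% of mutant myocytes were female-like and 51.3% male-like. The main results for mutant against control are therefore also given for female-like cells alone.

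In the embryo, muscle progenitors keep Pax7 or Myf5, turn on Myod1 and then Myog, leave the cell cycle, fuse through the membrane proteins myomaker and myomixer, and assemble sarcomeres while acetylcholine receptors gather for innervation. Myogenin and its relatives are basic helix-loop-helix factors that bind the E-box, a short motif written CANNTG. Muscles of the jaw, face and pharynx, called branchiomeric, arise from pharyngeal mesoderm under Tbx1, Tcf21, Msc and Isl1 rather than under the Pax3 programme of the trunk.

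The promoters of Myog, which encodes the differentiation factor myogenin, and of Chrna1, which encodes the alpha subunit of the muscle acetylcholine receptor, are shown because Myog heads the membership rule and Chrna1 differed between the libraries. Both are RefSeq sequences on GRCm38.p6, from 250 bases before to 50 bases after the annotated start, written 5′ to 3′ on the gene's strand with every CANNTG in capitals. The Myog window is chr1:134289754-134290053 on the plus strand, with an E-box beginning 138 bases and another 12 bases before the start, and the Chrna1 window is chr2:73580289-73580588 on the minus strand, with E-boxes beginning 92, 73 and 44 bases before the start.
Myog: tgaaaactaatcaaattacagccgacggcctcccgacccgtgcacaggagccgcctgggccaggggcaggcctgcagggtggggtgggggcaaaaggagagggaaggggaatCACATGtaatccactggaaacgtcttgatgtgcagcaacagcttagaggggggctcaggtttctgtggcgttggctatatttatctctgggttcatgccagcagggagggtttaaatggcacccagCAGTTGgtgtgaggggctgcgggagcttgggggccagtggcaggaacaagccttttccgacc
Chrna1: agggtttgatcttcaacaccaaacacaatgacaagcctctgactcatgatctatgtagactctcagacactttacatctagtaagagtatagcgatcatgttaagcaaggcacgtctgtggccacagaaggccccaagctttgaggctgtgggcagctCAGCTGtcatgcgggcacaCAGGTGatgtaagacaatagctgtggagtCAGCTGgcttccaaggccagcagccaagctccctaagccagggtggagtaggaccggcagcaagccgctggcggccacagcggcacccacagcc
The motif reads the same on both strands. Of the 7 markers, Myog, Myh3, Mylpf and Tnnc2 were matched to this set, and all 4 promoters held at least 1 CANNTG, beside 72.3% of 32851 RefSeq promoters of that length. The narrower CAGCTG, which is contained in CANNTG, occurs at least 2 times in the Chrna1 window and in 1.90% of all promoters. Among 10 promoters of 8 matched neuromuscular junction genes, 8 held CANNTG and 4 held CAGCTG, beside 16.3% of all promoters for CAGCTG. These matches describe letters in a window and are not binding sites.

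The 7 markers chose the cells, so their levels are given as a description. Myog was summed to 2116 counts per 1000000 UMIs (CPM) in control myocytes and 1541 CPM in mutant myocytes, and a UMI of it was present in 94.4% and 96.3% of cells, compared with 30.5% and 23.2% of progenitors and 19.7% and 9.44% of the other cells. The fusion genes Mymk (myomaker) and Mymx (myomixer) were also lower in the mutant library, Mymk at 339.5 against 250.2 CPM and Mymx at 342 against 253 CPM. The embryonic myosin heavy chain Myh3 was at 345 CPM in control and 611 CPM in mutant, the fast myosin light chain Mylpf at 584 and 1083 CPM, and the fast troponin C gene Tnnc2 at 104 and 239 CPM. Nebulin (Neb), the ruler of the thin filament, was at 753 CPM in control and 577 CPM in mutant. Over all myocytes, log2 ratios of mutant over control thus ran from -0.46 for Myog to 1.20 for Tnnc2, with 4 markers lower and 3 filament markers higher. The direction of those 3 depended on the cells taken: in the 306 control and 173 mutant myocytes with only 3 to 5 of the markers, all 7 were lower in mutant (median -0.68), and in those with 6 or 7 markers, 3 were higher and 4 lower. A UMI of Tnnc2 was found in 17.2% of control and 45.0% of mutant myocytes, compared with 1.97% and 5.73% of progenitors and 1.10% and 2.07% of the other cells. A few cells carried much of the message: the 5 cells with most Tnnc2 UMIs held 44.2% of the Tnnc2 total in control and 36.8% in mutant, whereas for Myog the share was 4.99% and 8.27%.

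**Figure D1:**
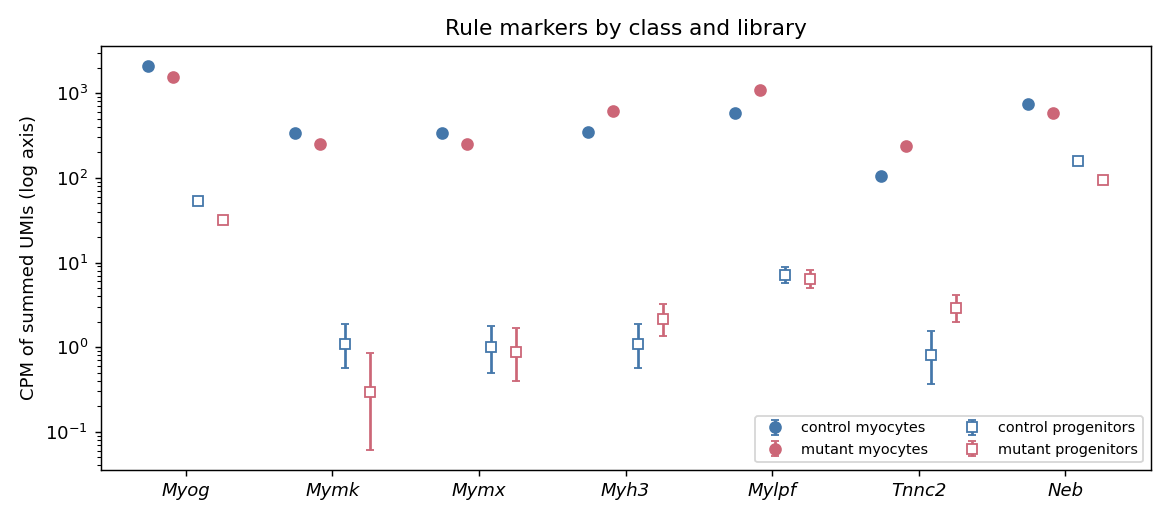
Summed CPM (log axis) of the 7 markers that define myocytes, in myocytes (filled circles) and progenitors (open squares) of each library, with 95% Poisson intervals. Myog, Mymk, Mymx and Neb are higher in control myocytes and Myh3, Mylpf and Tnnc2 in mutant myocytes. Progenitors, which were required to have fewer than 3 of the markers, lie lower for every marker.

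The label branchial was checked against position genes. Isl1 itself was at 24.0 CPM in control and 43.6 CPM in mutant myocytes, Tbx1 at 17.5 and 26.9 CPM, Tcf21 at 10.96 and 16.1 CPM and Msc (musculin) at 125 and 114 CPM. The 11 branchiomeric regulators summed to 422 CPM in control and 492 CPM in mutant. The 10 genes of trunk and hypoglossal position summed to 41.5 and 44.1 CPM. Among these, Pax3 was at 0.556 CPM in control and 5.04 CPM in mutant, and Lbx1, a factor of migrating limb and tongue precursors, was at 8.34 and 9.71 CPM. The branchiomeric list summed to 807 and 865 CPM in progenitors and to 605 and 502 CPM in the other cells, so its level in myocytes was not above that of the rest of the libraries and does not set these cells apart. Of the progenitor sums, Msc, which was used to choose progenitors, gave 426 and 329 CPM. The trunk and hypoglossal genes summed to 51.7 and 72.6 CPM in progenitors and to 259.8 and 139 CPM in the other cells. Branchiomeric genes were thus present in the myocytes of both libraries, and the trunk and tongue genes were low but not at 0.

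Myocytes made up 16.7% of filtered control cells (interval 15.3 to 18.1%) and 8.54% of filtered mutant cells (7.63 to 9.52%). Progenitors were closer, at 14.6% (13.3 to 16.0%) and 12.5% (11.4 to 13.6%). When every cell was thinned to 5000 UMIs and the rule was applied again, with 61 shallower cells of the control library and 173 of the mutant library set aside, the myocyte share was 10.8% (9.69 to 12.1%) in control and 5.70% (4.93 to 6.54%) in mutant. The lower share of the mutant library was therefore present at equal depth. In 1 pool of embryos per genotype, fewer cells and a different recovery from dissection or sorting cannot be told apart, and a share also depends on the other cell types in the sort. Of the deposited cells that failed the filter, 56 of 1722 control and 20 of 1868 mutant cells passed the marker part of the rule.

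The number of markers per cell was used to grade the cells. The markers themselves differed between the libraries, with Tnnc2 found in 17.2% of control and 45.0% of mutant myocytes. The grade therefore does not measure how far a cell had gone. Of the control myocytes, 27.3% had 3 markers, 38.5% had 4 or 5, and 34.2% had 6 or 7 (29.9 to 38.7%). Of the mutant myocytes, 30.5% had 3, 27.5% had 4 or 5, and 41.9% had 6 or 7 (36.3 to 47.8%). The share with 6 or 7 after thinning was 29.8% (24.7 to 35.4%) in control and 46.6% (39.3 to 53.9%) in mutant. Because the grade counts the markers that chose the cells, these shares are a description. At full depth that end made up 41.8% of female-like and 41.8% of male-like mutant myocytes, against 34.8% of female-like control myocytes. Just outside the rule, 316 control and 213 mutant cells had 2 markers, with medians of 25167.5 and 23702 UMIs, and just inside, 127 control and 91 mutant cells had 3, with medians of 27662 and 28211 UMIs. After thinning, Pax7 was at 110.1 CPM in control and 89.3 CPM in mutant cells with 2 markers, and at 44.1 and 43.9 CPM in those with 3, whereas Myog was at 545 and 555 CPM with 2 and at 1450.0 and 1088 CPM with 3.

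**Figure D2:**
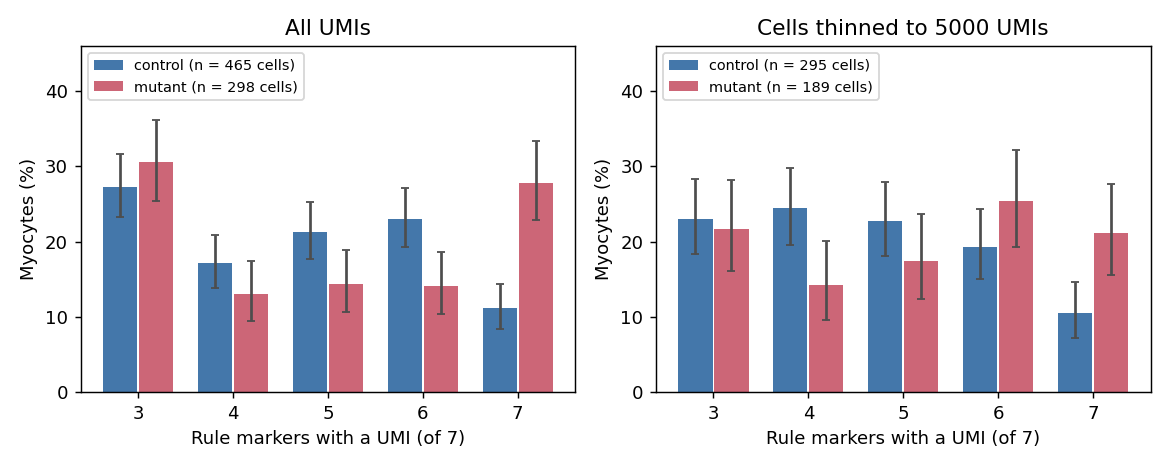
Share of myocytes (%) by the number of the 7 markers with a UMI, in control and mutant libraries, at all UMIs (left) and after thinning each cell to 5000 UMIs (right), with 95% Clopper-Pearson intervals. Thinned mutant myocytes hold a larger share of cells with 6 or 7 markers than thinned control myocytes, 46.6% against 29.8%.

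Cell-cycle messages were less frequent in cells with more markers. A UMI of Mki67 or Top2a, both made by dividing cells, was present in 66.0% of control and 65.8% of mutant myocytes, compared with 90.4% and 84.4% of progenitors. In thinned cells the shares were 32.9% (27.5 to 38.6%) and 33.9% (27.2 to 41.1%) in myocytes and 72.2% and 66.4% in progenitors. By grade, they were 52.9% of control cells with 3 markers, 30.2% with 4 or 5 and 21.6% with 6 or 7, and 58.5%, 43.3% and 15.9% in mutant. The remaining cells of the libraries, 48.2% and 46.1% of which had such a UMI after thinning, give no background for these genes because they also divide. Cdkn1a, which encodes the cell-cycle inhibitor p21, was at 112 CPM with 3 markers, 276 CPM with 4 or 5 and 800.0 CPM with 6 or 7 in thinned control cells, and at 161, 550.0 and 1123 CPM in thinned mutant cells. The intervals of the share with cycling messages overlapped between myocytes of the 2 libraries. The summed levels of both genes were lower in mutant myocytes, Mki67 at 198 and 151 CPM (log2 ratio -0.39, interval -0.49 to -0.30) and Top2a at 269 and 235 CPM (-0.20, interval -0.28 to -0.11). With embryo sex matched, the interval of Mki67 spanned 0 and Top2a changed direction. In female-like myocytes the ratios were -0.05 (interval -0.18 to 0.08) for Mki67 and 0.11 (0.00 to 0.22) for Top2a. In male-like over female-like mutant myocytes they were -0.72 and -0.54. The list of 40 proliferation genes had medians of -0.05 in all myocytes, 0.11 in female-like myocytes and -0.41 for male-like over female-like mutant myocytes, and of 0.09 in cells with 3 to 5 markers and -0.37 in those with 6 or 7.

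**Figure D3:**
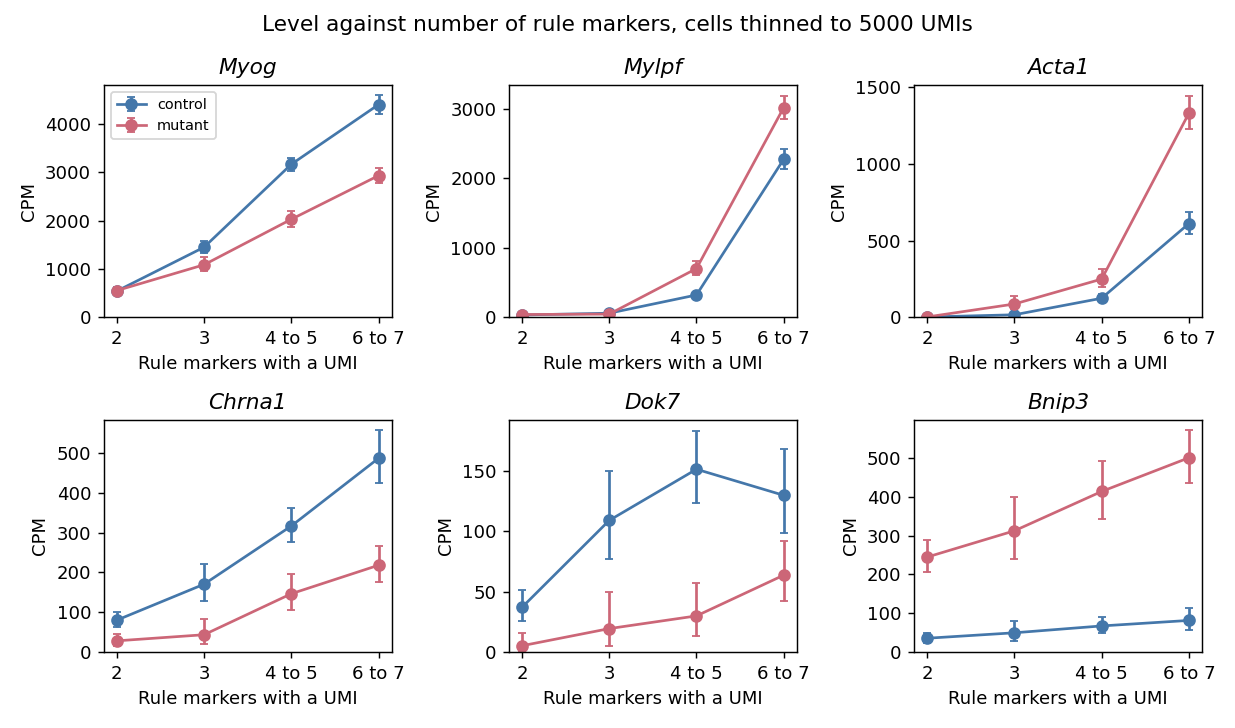
CPM of 6 genes in cells thinned to 5000 UMIs, by the number of the 7 markers with a UMI (2 is just outside the rule), with 95% Poisson intervals, in control (blue) and mutant (red). Chrna1 and Dok7 are lower and Bnip3 is higher in the mutant library at every step, whereas Mylpf and Acta1 lie close at 2 markers and are higher in mutant cells with 6 or 7.

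Against progenitors of the same library, genes of the contractile apparatus stood highest in myocytes. Because the cells were chosen on genes of the same cells, this contrast is a description. In it, 13.1% of 14177 genes were at least 1.5-fold higher and 16.2% lower in control, and 11.6% higher and 18.0% lower of 13959 genes in mutant. Of the thick filament list, 15 of 18 genes were higher in control, with a median log2 ratio of 3.71, and 18 of 18 in mutant, with a median of 4.22. Of the thin filament list, 16 of 20 genes were higher in control (median 2.94) and 17 of 20 in mutant (median 4.01). The lists of titin, Z-disc and costamere genes had medians of 2.20 and 2.08, those of excitation-contraction coupling 1.54 and 1.85, and those of the neuromuscular junction 1.79 and 2.19. All 40 proliferation genes were tested, and 20 of them in control and 17 in mutant were at least 1.5-fold lower in myocytes. Both filament lists include markers that the rule used.

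Outside the 7 markers, among 1722 genes with at least 100 CPM in myocytes or progenitors of each library, the genes furthest above progenitors in both libraries were the slow troponin I gene Tnni1, with log2 ratios of 6.68 in control and 6.41 in mutant, skeletal actin Acta1 (6.26 and 8.14), slow troponin C Tnnc1 (5.88 and 6.58), Tnnt2 (5.66 and 5.62) and the light chain Myl1 (5.96 and 5.56). Cardiac actin Actc1, the actin that embryonic skeletal muscle also uses, had ratios of 3.30 and 5.19. Genes with other roles among the 20 highest were the muscarinic receptor Chrm3 (4.64 and 5.21), Cdkn1a (5.29 and 4.41), the scaffold Dlg2 (4.06 and 3.72), the transcription factor Mef2c (3.59 and 3.83), the cannabinoid receptor Cnr1 (3.46 and 3.72) and the neuregulin receptor Erbb4 (2.94 and 3.43). At the lower end stood Pax7 (-1.80 and -1.80) and Msc (-1.77 and -1.52), which chose the progenitors, the matrix proteoglycan Vcan (-1.43 and -1.40) and the chromatin protein Hmga2 (-1.28 and -1.33). Of the 11 branchiomeric regulators, 5 in control and 7 in mutant were at least 1.5-fold lower in myocytes than in progenitors and 0 were higher. The lower genes include Msc, which chose the progenitors.

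Between mutant and control myocytes, 13.2% of 14102 genes were at least 1.5-fold higher and 11.7% were at least 1.5-fold lower, with a median log2 ratio over all genes of -0.03. In progenitors these shares were 13.8% and 9.35%. Among the lists that mark neither a cell type nor embryo sex, genes that low oxygen induces had the highest median: 35 of 42 measured members outside glycolysis were higher in mutant myocytes and 0 lower, at a median of 1.31. The mitophagy receptor Bnip3 was at 55.0 CPM in control and 318 CPM in mutant myocytes, a log2 ratio of 2.53 (2.41 to 2.65), and a UMI of it was found in 53.8% and 90.6% of cells, beside 44.1% and 74.6% of the cells that were neither myocytes nor progenitors. The glucose transporter Slc2a1 was at 36.0 and 162 CPM (2.17, interval 2.02 to 2.33), and the lactate exporter Slc16a3 at 13.1 and 135 CPM (3.36, interval 3.13 to 3.61). Vegfa, the endothelial growth factor, was at 30.7 and 84.6 CPM (1.46, interval 1.28 to 1.64), and carbonic anhydrase Car9 at 1.11 and 70.1 CPM (5.98, interval 5.22 to 6.86). The vasoactive peptide gene Adm was at 1.67 and 32.1 CPM (4.27, interval 3.62 to 4.98).

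Glycolytic enzymes were higher in mutant myocytes for 21 of 24 genes and lower for 0, with a median of 1.07. Lactate dehydrogenase Ldha was at 934 and 2049 CPM (log2 ratio 1.13), aldolase Aldoa at 865 and 1977 CPM (1.19), phosphoglycerate kinase Pgk1 at 445 and 985 CPM (1.15), Gapdh at 2181 and 3302 CPM (0.60), and Eno3, the muscle enolase, at 47.9 and 112 CPM (1.22). Progenitors had medians of 1.22 for the hypoxia-induced list and 0.82 for glycolysis, and the other cells 1.20 and 1.09. The difference was thus seen in myocytes as in the rest of the mutant library, and no test compared the classes. In female-like cells alone, the myocyte medians were 1.04 and 0.92, and male-like over female-like mutant myocytes gave 0.48 for the hypoxia-induced list. The hypoxia-induced median was 1.20 in cells with 3 to 5 markers and 1.88 in those with 6 or 7.

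More filament genes were higher than lower in mutant myocytes, mainly in the thick filament list, and the size and sign of the difference depended on how cells were graded. Of the thick filament list, 10 of 18 genes were at least 1.5-fold higher in mutant myocytes and 1 lower (median 0.76), and of the thin filament list, 6 of 20 were higher and 1 lower (median 0.31). Progenitors had medians of 0.75 for the thick and 0.09 for the thin filament list, and the other cells 0.78 for both. The fast-type and slow-type isoforms had medians of 0.48 and 0.75 in all myocytes, 0.42 and 0.32 in progenitors and 0.83 and 0.87 in the other cells. Higher filament medians were thus not particular to myocytes, but the summed levels differed. The progenitor thick filament median covered 13 genes, 7 higher and 4 lower. Summed in progenitors, the thick filament list was lower in mutant, at 225 CPM in control and 135 CPM in mutant. The thin filament list was also lower there, at 2435 and 2271 CPM. In the other cells both sums were higher in mutant, at 457 and 1414 CPM and at 2543 and 5141 CPM. No test compared the classes. In the 306 control and 173 mutant myocytes with 3 to 5 markers, the medians were 0.09 and -0.50. In the 159 control and 125 mutant myocytes with 6 or 7 markers, they were 0.70 and 0.28. The fast-type isoforms had medians of -0.63 in the first grade and 0.48 in the second, and the slow-type isoforms 0.05 and 0.97. In female-like cells alone, the medians were 0.53 for the thick filament, 0.15 for the thin filament, 0.03 for the fast-type and 0.51 for the slow-type isoforms. Within each of these grades the libraries were not alike: cells with 3 markers made up 127 of 306 control and 91 of 173 mutant cells of the first, and cells with 7 made up 52 of 159 control and 83 of 125 mutant cells of the second. When cells were graded after thinning, the summed thick filament genes were higher in mutant at 3 markers (597 and 1029 CPM), at 4 or 5 (1876 and 3100.0 CPM) and at 6 or 7 (8007 and 9702 CPM), whereas the summed thin filament genes lay close, at 7797 and 7932, 13955 and 12230.0, and 27316 and 27052 CPM. The summed fast-type isoforms were higher in mutant in each of these thinned grades, at 288 and 478 CPM, 1101 and 1913 CPM, and 5273 and 6516 CPM. The summed slow-type isoforms were also higher in each, at 1141 and 1834 CPM, 1816 and 2293 CPM, and 4255 and 5466 CPM. The exclusion genes were also counted after thinning, so fewer cells were left out as possible heart or other cells. At 3 markers these were 1 of 69 control and 1 of 42 mutant cells, beside 5 of 132 and 10 of 101 at full depth. The thinned grades can thus hold cells that were left out at full depth. In the same thinned cells, cardiomyocyte markers in the grade of 3 markers summed to 26.5 CPM in control, from 9 UMIs, and to 829 CPM in the mutant library, from 170 UMIs, of which Myl7 gave 8.82 and 541 CPM. With 4 or 5 markers they summed to 51.8 and 76.7 CPM, and with 6 or 7 to 270.5 and 182 CPM. Their part in the filament results was not tested. The markers Myh3, Mylpf, Tnnc2 and Neb are themselves filament genes, so neither the grades nor the lists are independent of the rule. Myh3, Mylpf and Tnnc2 are among the genes counted as higher. Over all myocytes the thick filament list summed to 2036 CPM in control and 3506 CPM in mutant. Of these sums, Myh3 gave 345 and 611 CPM and Mylpf 584 and 1083 CPM. The fast-type sums likewise hold Mylpf and Tnnc2. Values without the rule genes are not given, so these differences are a description.

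Acta1 shows how far the grading matters. At full depth it was at 37.0 CPM in control and 16.3 CPM in mutant cells with 3 to 5 markers, a log2 ratio of -1.18, and at 387 and 1269.8 CPM in those with 6 or 7, a ratio of 1.71. Graded after thinning, it was higher in mutant in each grade, at 17.6 and 87.8 CPM with 3 markers, the grade in which cardiomyocyte markers were also higher in mutant, and at 611 and 1329.6 CPM with 6 or 7. A UMI of Acta1 was found in 25.6% of control and 34.2% of mutant myocytes and in 7.17% and 10.1% of the other cells, and 5 cells held 49.4% and 50.9% of its UMIs. The cardiac and embryonic troponin T gene Tnnt2 went the other way, at 665 and 403 CPM over all myocytes (-0.72, interval -0.78 to -0.67), as did the M-line protein Myom3 (-0.85) and the perinatal myosin Myh8 at 45.4 and 31.7 CPM (-0.52). Actc1 at 5839.8 and 5296 CPM (-0.14) and titin (Ttn) at 1703 and 1697 CPM lay close. The Z-disc actinin Actn2 was at 85.9 and 185 CPM (1.11), and the small heat shock protein Cryab, also of the Z-disc, at 155 and 73.8 CPM (-1.07). The slow and cardiac myosin Myh7 was at 1.19 CPM in control and 51.0 CPM in mutant myocytes (5.42, interval 4.68 to 6.27), with a UMI in 1.72% and 22.1% of cells beside 3.40% and 11.3% of the other cells, and 5 mutant cells held 51.3% of its UMIs. The cardiomyocyte markers Myl2, at 0.953 and 5.41 CPM, Myh6, at 1.03 and 4.06 CPM, and Myl7, at 4.37 and 25.8 CPM, were also higher in mutant myocytes. Of 9 measured cardiomyocyte markers, 5 were higher and 1 lower. In the cells that were neither myocytes nor progenitors, Myl2 was at 35.0 CPM in control and 392 CPM in mutant. The part of heart cell RNA in the Myh7 difference was not tested.

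**Figure D4:**
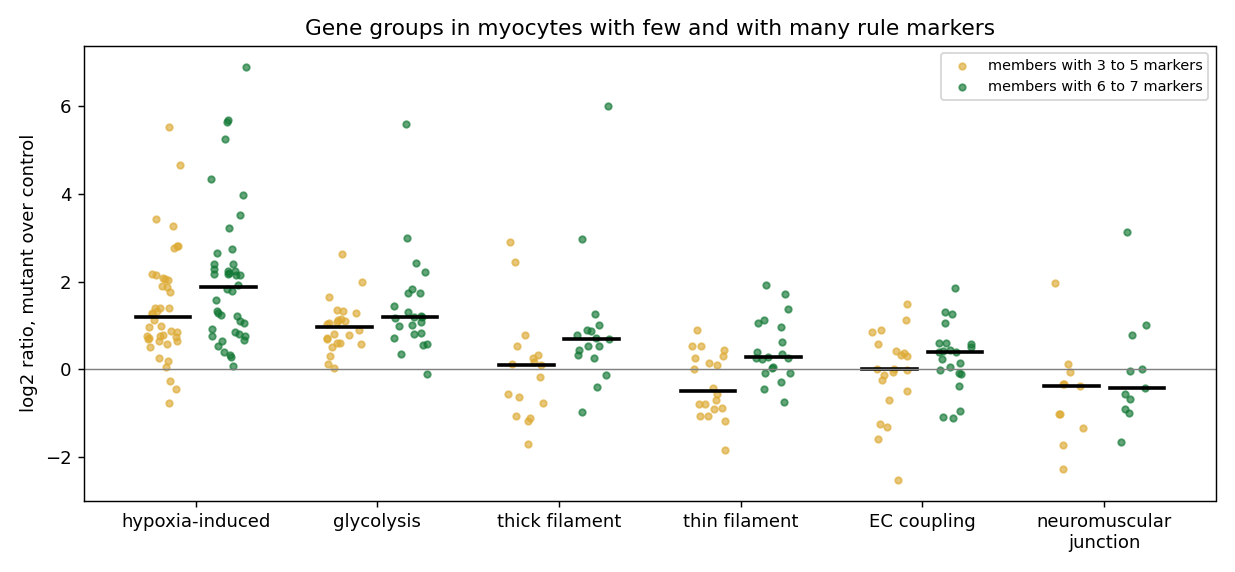
Log2 ratio of mutant over control for genes of 6 lists in myocytes with 3 to 5 markers (yellow) and with 6 or 7 markers (green), each point a gene with at least 20 UMIs and each black line the list median. The medians of hypoxia-induced and glycolytic genes lie above 0 and those of junction genes below 0 in both grades, whereas the thin filament median is -0.50 in the first grade and 0.28 in the second.

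Of 25 excitation-contraction coupling genes, 9 were higher in mutant myocytes and 3 lower (median 0.49). Of these 25 genes, 20 lay above 0, beside 6578 of all 14102 genes. The median was 0.00098 in cells with 3 to 5 markers and 0.40 in those with 6 or 7. The calsequestrin Casq2 was at 28.8 CPM in control and 77.2 CPM in mutant (1.42, interval 1.24 to 1.62), and the channel Tmem38a at 26.5 and 61.3 CPM (1.21). The calcium release channel Ryr1 was at 136 and 98.8 CPM (-0.46), and the fast calcium pump Atp2a1 at 131 and 149 CPM (0.18). Of 19 genes of muscle energy metabolism, 10 were higher and 1 lower (median 0.71). The median of that list was 0.50 in progenitors and 0.65 in the other cells. Brain-type creatine kinase Ckb, which embryonic muscle uses before the muscle type, was at 300.03 and 746 CPM (1.31), and the fatty acid carrier Fabp3 at 9.77 and 51.0 CPM (2.38, interval 2.09 to 2.69). In female-like cells the energy list had a median of 0.32, the coupling list 0.36, and the list of titin, Z-disc and costamere genes 0.06, beside 0.24 in all myocytes.

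Among the lists of muscle genes other than the 7 markers, the neuromuscular junction had the lowest median in mutant over control. Of 11 measured genes, 5 were at least 1.5-fold lower and 1 higher, with a median of -0.33. The receptor subunit Chrna1 was at 229.6 CPM in control and 109 CPM in mutant myocytes, a log2 ratio of -1.07 (-1.18 to -0.96), with a UMI in 77.0% and 55.0% of cells, against 4.08% and 1.96% of the cells that were neither myocytes nor progenitors. Chrnb1 was at 129 and 77.3 CPM (-0.74, interval -0.87 to -0.60) and Chrnd at 51.7 and 28.4 CPM (-0.86, interval -1.09 to -0.65). The kinase Musk, which receives the nerve's agrin signal, was at 49.4 and 27.9 CPM (-0.82, interval -1.05 to -0.60). Its adaptor Dok7 was at 86.9 and 24.2 CPM (-1.84, interval -2.07 to -1.62) and was found in 69.5% of control and 33.2% of mutant cells, against 3.19% and 1.45% of the cells that were neither myocytes nor progenitors.

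Among the other junction genes, the embryonic gamma subunit Chrng was at 124 and 102 CPM (-0.28), the receptor-clustering protein Rapsn at 70.3 and 69.6 CPM (-0.01), the agrin receptor Lrp4 at 15.5 and 21.3 CPM (0.46) and the esterase Ache at 10.4 and 15.2 CPM (0.55). Colq, the collagen tail of the esterase, was the 1 gene at least 1.5-fold higher, and its levels were low, at 0.794 and 4.92 CPM (2.63). The adult subunit Chrne had 0 UMIs in both libraries. The 5 junction genes that were at least 1.5-fold lower over all myocytes had ratios below 0 in both grades: Chrna1 had ratios of -1.72 in cells with 3 to 5 markers and -0.99 in those with 6 or 7, Dok7 of -2.28 and -1.67, Musk of -1.34 and -0.56, Chrnd of -1.01 and -0.91 and Chrnb1 of -1.01 and -0.67. The list as a whole was more divided in cells with 6 or 7 markers. There 7 of 11 genes lay below 0 and 4 above, beside 5843 of all 11471 genes below 0. In cells with 3 to 5 markers, 9 lay below 0 and 2 above, beside 7151 of all 13080 genes below 0. With 3 to 5 and with 6 or 7 markers, the ratios of Lrp4 were 0.12 and 1.00, those of Ache -0.33 and 0.77 and those of Colq 1.97 and 3.13. In thinned cells the 12 junction genes summed to 750.0 CPM in control and 312 CPM in mutant with 3 markers, to 1237 and 653 CPM with 4 or 5, and to 1709 and 1034 CPM with 6 or 7. The direction was the same under either grading, but both gradings count the same markers. Progenitors had larger differences in the same direction, with Chrna1 at -2.95 and Dok7 at -2.75 and 7 of 11 junction genes lower. In female-like myocytes, Chrna1 was at -0.96, Chrnd at -0.79, Musk at -0.70 and Dok7 at -1.49.

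Of the fusion list, 6 of 22 genes were higher in mutant myocytes and 2 lower (median 0.11), but its summed level was lower, at 2315 CPM in control and 1981 CPM in mutant. The median was -0.0023 in cells with 3 to 5 markers and 0.09 in those with 6 or 7. In thinned cells the sum was 2106 and 1605 CPM with 3 markers, 3334 and 2240.0 CPM with 4 or 5, and 4050.0 and 3064 CPM with 6 or 7. The list includes Mymk and Mymx, which the rule used. Both were lower in mutant myocytes, Mymk at 339.5 and 250.2 CPM and Mymx at 342 and 253 CPM. Sums without them are not given, so the lower sums are a description. Elmo1, which with Dock1 forms an exchange factor that activates Rac during myoblast fusion, had the lowest ratio among genes with at least 100 CPM in either library. It lies on GRCm38 at chr13:20090596-20608353 and was at 101 CPM in control and 12.2 CPM in mutant myocytes, a log2 ratio of -3.06 (-3.37 to -2.76), with a UMI in 52.0% and 22.1% of cells beside 44.5% and 40.8% of the other cells. In progenitors it was at 6.15 and 5.46 CPM (-0.17) and in the other cells the ratio was -0.06. Within control, the level was 4.04 higher on the log2 scale in myocytes than in progenitors, compared with 1.16 within mutant. The ratio of mutant over control was -3.20 in cells with 3 to 5 markers, -3.14 in those with 6 or 7, and -2.85 in female-like cells. Dock1 was at 87.4 and 58.6 CPM (-0.58), and the cadherin Cdh15, a surface protein of fusing myoblasts, at 268 and 243 CPM (-0.14). The metalloprotease Adam12, which fusing myoblasts also make, was at 106 and 37.1 CPM (-1.51, interval -1.70 to -1.33) and had a ratio of -2.04 in progenitors.

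Among 1848 genes with at least 100 CPM in either library, the intervals of 85 lay beyond a 1.5-fold rise and those of 67 beyond a 1.5-fold fall. The largest ratios belonged to the inducible chaperones Hspa1b, at 9.53 and 279 CPM (4.87, interval 4.61 to 5.15), and Hspa1a, at 12.7 and 304 CPM (4.58, interval 4.35 to 4.82), 2 near-identical genes between which reads are hard to divide. Of 17 heat shock genes, 7 were higher and 1 lower (median 0.49), and in male-like over female-like mutant myocytes Hspa1b had a ratio of -1.70. After Slc16a3 came the neurofilament gene Nefm, at 12.6 and 100.4 CPM (2.99), of which 5 cells held 87.6% of the mutant UMIs. Bnip3 and Slc2a1 were followed by Ddit4, an inhibitor of mTORC1, at 81.6 and 326 CPM (2.00), the activin antagonist Fst, the imprinted membrane protein gene Nnat at 468 and 1819 CPM (1.96) and the light chain Myl9 of smooth and non-muscle myosin at 42.5 and 152 CPM (1.84). In progenitors Hspa1b had a ratio of 4.32, Hspa1a of 3.79, Ddit4 of 2.40, Nnat of 1.88 and Myl9 of 1.16. In the other cells Hspa1b had a ratio of 3.34 and Hspa1a of 2.94.

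Among genes with at least 100 CPM in either library, the lowest ratio after Elmo1 belonged to the caveolar protein Cavin2. It was at 227 CPM in control and 33.9 CPM in mutant (-2.74, interval -2.92 to -2.56), and its ratio was -4.50 in progenitors. The collagens Col1a1 (117 and 21.6 CPM, -2.43) and Col3a1 (185 and 59.4 CPM, -1.64) are mesenchyme markers, and 5 cells held 74.4% of the mutant Col1a1 UMIs. Dock10 was at 109 and 27.2 CPM (-2.00), and the adhesion receptor Adgrl3 at 125 and 41.9 CPM (-1.58). Dynlt1b (-1.70) and the splicing factor gene Cwc22 (-1.57) have near-identical copies, so their counts are uncertain. Cwc22 was at -0.89 in female-like cells.

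**Figure D5:**
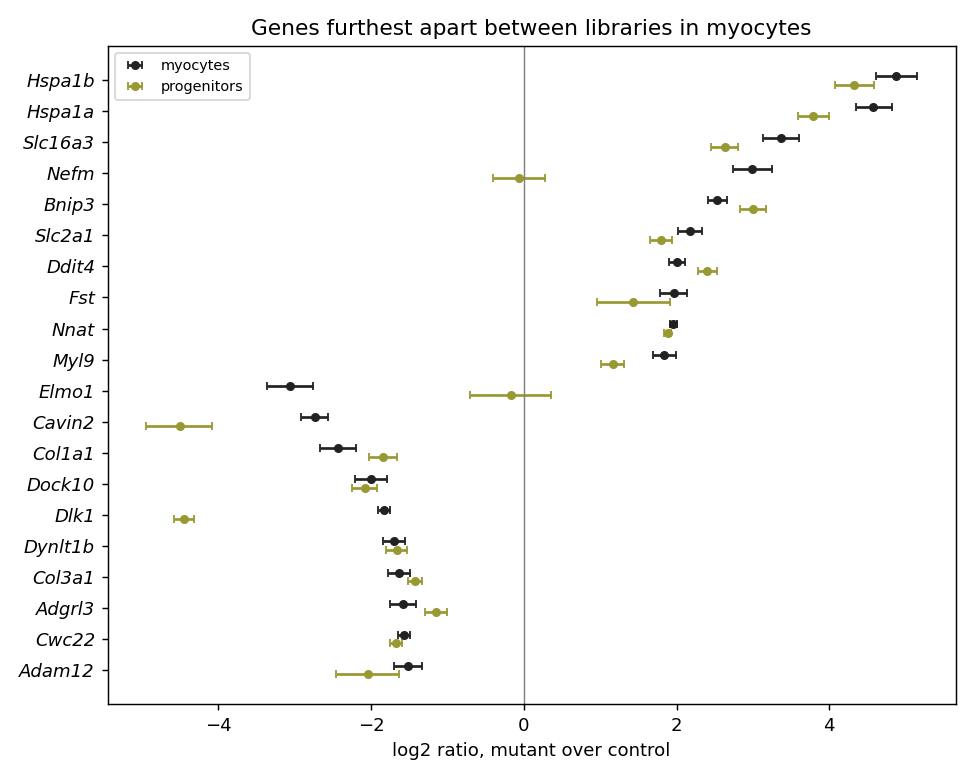
Log2 ratio of mutant over control with 95% counting intervals for the 10 highest and 10 lowest genes in myocytes (black), beside progenitors (olive). Elmo1 and Nefm lie near 0 in progenitors, at -0.17 and -0.06, and Dlk1 and Cavin2 have lower ratios in progenitors than in myocytes.

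The imprinted Dlk1, a membrane ligand of embryonic muscle and other growing tissues, lay on both sides of differentiation. It is at chr12:109452823-109463336 on GRCm38 and was at 681 CPM in control and 191 CPM in mutant myocytes, a log2 ratio of -1.83 (-1.91 to -1.75). In progenitors it was at 975 and 44.6 CPM (-4.45). In myocytes with 3 to 5 markers it was at 797 and 48.4 CPM (-4.04). In those with 6 or 7 it was at 466 and 403 CPM (-0.21), so that its level was higher there within mutant and lower within control. Graded after thinning, it was at 653 and 39.0 CPM with 3 markers, 347 and 367 CPM with 4 or 5, and 461 and 568 CPM with 6 or 7. The 5 cells with most Dlk1 UMIs held 44.8% of the mutant and 14.4% of the control total. Meg3, the maternally expressed RNA of the same imprinted region, had ratios of -1.63 in progenitors, -1.10 in myocytes with 3 to 5 markers and 0.27 in those with 6 or 7. Of the 24 IGF and imprinted growth genes, 3 were higher and 3 lower in myocytes (median -0.18). Igf2 was at 918 and 815 CPM (-0.17) and Igf1 at 24.6 and 6.52 CPM (-1.92).

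The myostatin and activin axis restrains muscle growth, and its list holds ligands, receptors, signal transducers and inhibitors. Of 12 measured genes, 7 were higher in mutant myocytes and 0 lower (median 0.78), namely the ligands Mstn, Tgfb1 and Bmp4, the receptors Acvr1b and Acvr2a, the inhibitory Smad7 and the antagonist Fst. Fst (follistatin), which is secreted and binds activins and myostatin, lies at chr13:114452290-114458951 on GRCm38 and was at 28.0 and 109 CPM (1.96, interval 1.78 to 2.14), with a UMI in 13.55% and 42.3% of cells beside 12.1% and 8.06% of the other cells. Its ratio was 0.94 in cells with 3 to 5 markers and 2.47 in those with 6 or 7, compared with 1.43 in progenitors and -0.58 in the other cells. Myostatin (Mstn) itself was at 55.2 and 89.3 CPM (0.69).

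Pik3ca was at 32.2 CPM in control and 24.6 CPM in mutant myocytes (-0.39, interval -0.64 to -0.14), and at 31.0 and 31.3 CPM in progenitors. The counts do not separate the transgene from the endogenous gene, so they do not check the genotype. Of 32 PI3K, FOXO and mTORC1 genes, 11 were higher in mutant myocytes and 3 lower (median 0.11). Foxo1, a transcription factor that Akt keeps out of the nucleus, was at 42.6 and 102 CPM (1.26, interval 1.10 to 1.42), and Foxo3 at 15.6 and 25.6 CPM (0.71). Of 20 integrated stress response genes, 12 were higher and 1 lower (median 0.66). Among them, Ddit3 was at 7.55 and 33.8 CPM (2.16), asparagine synthetase Asns at 24.7 and 55.9 CPM (1.18) and Atf4 at 131 and 209.7 CPM (0.68). In female-like cells alone, where 12.3% of 13365 genes were at least 1.5-fold higher and 12.5% lower, 2 of 17 measured genes of this list were higher and 3 lower, with a median of 0.43. The median was 0.40 for male-like over female-like mutant myocytes. Of 80 ribosomal protein genes, 0 were higher and 1 lower (median -0.03).

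Of 26 myogenic regulators, 6 were higher in mutant myocytes and 3 lower, with a median of 0.16. Myod1 was at 608 and 527 CPM (-0.20) and Mef2c at 237 and 281 CPM (0.24). Sox6, a repressor of slow fibre genes, was at 185 and 98.1 CPM (-0.91), and Tead4, a factor induced during differentiation, at 70.1 and 37.7 CPM (-0.89). Nfix, which directs the fetal muscle programme, was at 25.4 and 6.27 CPM (-2.02), with a ratio of -2.14 in progenitors. Of 20 Notch and stemness genes, 3 were higher and 5 lower (median -0.12), with Fgfr4 at 243 and 125 CPM (-0.96) and the laminin receptor subunit Itga7 at 11.4 and 2.70 CPM (-2.08). Of 17 genes of the dystrophin complex, 4 were higher and 5 lower, and dystroglycan (Dag1) was at 133 and 59.4 CPM (-1.17, interval -1.31 to -1.02). Of 12 genes of cell-cycle exit, 1 was higher, Cdkn1a at 258 and 446 CPM (0.79), and 3 were lower, among them Rb1 at 251 and 164 CPM (-0.62). The median of that list was -0.18 in all myocytes and -0.29 in female-like cells.

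Markers of other cell types were present in the myocyte sums, and several differed between the libraries. Mesenchyme markers summed to 614 CPM in control and 212 CPM in mutant, with 8 of 10 lower and none at 0, and Col3a1 (185 CPM) and Col1a2 (64.3 CPM) were highest. Their median was -1.45 in cells with 3 to 5 markers and -0.21 in those with 6 or 7. Neuron markers summed to 164 and 271 CPM, with Tubb3 highest at 45.0 and 77.1 CPM, and cardiomyocyte markers to 72.0 and 112 CPM, with Sln highest at 50.8 and 57.9 CPM. Smooth muscle markers summed to 1586 and 2621 CPM, of which Acta2, an actin that embryonic skeletal muscle also makes, gave 1469 and 2475 CPM, and their median ratio was 0.32 in all myocytes and -0.04 in female-like cells. Macrophage markers summed to 17.8 and 4.30 CPM, with Ptprc, C1qa, C1qb, C1qc and Aif1 at 0 in mutant. Endothelial markers summed to 21.4 and 35.0 CPM, epithelium markers to 60.8 and 51.4 CPM, erythroid markers to 11.8 and 24.7 CPM and neural crest and Schwann markers to 99.1 and 91.5 CPM. The part of these cells in the results above was not tested.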

How the data were processed

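Single cells sorted for eYFP from 3 pooled embryos per genotype were sequenced in 1 library each. The authors aligned reads with Cell Ranger 7.1.0 (mm10, per the labels) and deposited raw UMI counts for 32285 genes in 4505 control and 5357 mutant cells, 66935720 and 73915525 UMIs in all; whether intronic reads were counted is not given in the sources used here. The filter on genes and mitochondrial UMIs was that of the study. Doublets were kept and no caller was run.

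For each class of cells in a library, the counts of a gene were added up and scaled to the summed UMIs of that class (CPM). Ratios have conditional exact binomial intervals, CPM exact Poisson intervals and shares Clopper-Pearson intervals, all for counting error; PCR duplicates are collapsed by UMI. Lists are described by genes with at least 20 UMIs over both sums, called at 1.5-fold. A cell was female-like with Xist and without Ddx3y, Uty, Kdm5d and Eif2s3y, male-like with the reverse, otherwise unassigned. Named genes are the markers, examples from 36 lists chosen by level or ratio, the 10 highest and 10 lowest ratios among genes with at least 100 CPM whose interval lay beyond 1.5-fold, and genes from the 20 highest and 10 lowest against progenitors, ranked by the smaller ratio of both libraries, among those with at least 100 CPM in myocytes or progenitors of each. The members and lists were chosen with earlier results of these data known. Scripts were tested on simulated data. The alternatives concerned scaling (TMM of edgeR 4.0.16, median ratio, mean over cells), depth, minimum UMIs, filters, the member and progenitor rules, embryo sex and the fold; the split by marker number was added after seeing the data. The scripts ran on R 4.3.3 and Python 3.11.15 with pandas 2.3.3, scipy 1.17.1, numpy 2.4.6 and matplotlib 3.10.9.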

Additional observations from a re-analysis of the deposited data

Results flagged for a closer look

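Ache, which encodes the acetylcholinesterase of the synapse, was the gene singled out because the genotypes differed in opposite directions in 2 cell classes. On the log2 scale the mutant library stood at 0.55 relative to control in myocytes, at 10.4 and 15.2 CPM, and at -1.17 in progenitors, at 6.15 and 2.73 CPM. The difference between the classes was not tested. Outside this search, the light chain Myl4 had ratios of 0.50 in myocytes and -1.30 in progenitors.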

How the results depend on the processing

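Among the main alternatives, 189 values kept within the counting interval of the reported value, or within 1.5 times a count, and 54 did not; among those added after seeing the data, 7 did, 4 did not and 1 changed sign. The median over all genes ranged from -0.08 to 0.05. The mutant over control medians of the hypoxia-induced, glycolytic, thick filament, thin filament, excitation-contraction coupling and neuromuscular junction lists kept their direction under each main alternative run for them. Of the main alternatives, the other lists were run in female-like cells alone, where the medians of proliferation (0.11, beside -0.05 in all myocytes), muscle progenitor markers (0.14, beside -0.13) and smooth muscle markers (-0.04, beside 0.32) changed sign. With members of 3 to 5 markers, the thin filament median was -0.50, thick filament 0.090 and excitation-contraction coupling 0.00098; with 6 or 7 markers, the hypoxia-induced median was 1.88 and glycolysis 1.19. Thinning gave myocyte shares of 10.8% and 5.70%, medians of 1.75 (hypoxia-induced), 1.29 (glycolysis) and -0.73 (neuromuscular junction), 3.93 for thin filament over progenitors in control, -1.07 and -1.25 for proliferation over progenitors, and shares with cycling messages of 32.9% and 72.2% in control and 33.9% and 66.4% in mutant. With at least 100 UMIs, 817 genes were higher and 806 lower, with at least 1 UMI 6297 and 3828, and at 2-fold 993 and 801, beside 1856 and 1654 as reported; at least 1 UMI gave thick and thin filament over progenitors of 2.15 and 2.56 in control and thick filament of 3.30 in mutant. A rule of 2 markers gave shares of 28.1% and 14.6%, thick filament of 2.52 in control, proliferation of -0.30 and -0.33 and cycling shares of 73.1% and 71.6%; a rule of 4 markers gave 12.1% and 5.93%, hypoxia-induced 1.56, thin filament of 3.31 in control, proliferation of -0.77 and -0.84 and cycling shares of 59.5% and 57.0%. Allowing no UMI of Cdh5, Pecam1, Epcam or Ptprc gave shares of 14.7% and 7.37%. Without the 10% of myocytes with most UMIs, the control share was 15.0%, thick filament 0.46, thin filament 0.16 and control proliferation -0.80. In female-like cells the mutant share was 10.4%, hypoxia-induced 1.04, thin filament 0.15, mutant proliferation -0.39 and the mutant progenitor cycling share 87.8%. With 1 or more progenitor markers, proliferation was -0.38 and -0.36 and progenitor cycling shares 80.5% and 76.2%. The mean over cells gave glycolysis 1.19 and control proliferation -0.71, and median ratio scaling mutant proliferation -0.41. The cause was not tested where the alternative did not itself change the cells or genes counted.

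No paired analysis was possible because each genotype had 1 library. Depth limits genes under about 20 UMIs, and differences between embryos, dissections and sorts of the 2 pools cannot be told apart from genotype.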

Other observations

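Immediate early genes, which cells switch on within minutes of a stimulus, were mixed in mutant over control myocytes: of 18, 4 were at least 1.5-fold higher and 3 lower (median 0.19). Fos was at 221 and 335 CPM (log2 ratio 0.60) and Jun at 286 and 392 CPM (0.46), whereas Egr1 was at 300.03 and 231 CPM (-0.38). The Id proteins, which hold the partners of myogenic factors in inactive pairs, included Id1 at 140.4 and 219.7 CPM (0.65) and Id3 at 311 and 405 CPM (0.38). Of genes that myocytes carried above progenitors in both libraries, the scaffold Dlg2 was at 561 and 259.9 CPM in control and mutant myocytes (-1.11), and the receptor Erbb4 at 150.3 and 241 CPM (0.68). Neuron markers had a median log2 ratio of 1.07 in female-like mutant over female-like control myocytes and of -2.45 in male-like over female-like mutant myocytes.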
